A study of Mus musculus with 5 samples.

Results

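The genes described are 7 solute carriers that move bicarbonate or chloride across the cell membrane, Slc4a3, Slc4a4, Slc4a7, Slc4a8, Slc4a10, Slc12a2 and Slc12a5, out of 32531 genes listed in the count tables. They were followed in ribosome-bound RNA of adult mice, with 2 libraries from the cerebral cortex and 3 made from the dentate gyrus. The set was chosen by the higher Slc4a4 level in dentate gyrus, so the Slc4a4 difference between tissues is given as a description, without a test. All 7 genes passed the filter on low counts, which left 14136 genes for testing.

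Every mouse carried the Rbp4-Cre (KL100) driver and a Cre-dependent EGFP-tagged copy of the ribosomal protein Rpl10a at the Rosa26 locus, and none was treated. Cre in this driver follows regulatory sequence of Rbp4, and the line is widely used to reach pyramidal neurons of cortical layer 5. Tagged polysomes were pulled down from each dissected tissue with antibodies against EGFP, a method called translating ribosome affinity purification (TRAP). All 5 libraries are pulldown fractions, and RNA carried over from untagged cells was not measured, since no input fraction was analysed here. Nothing in the labels ties a library to particular animals. The p-values therefore reflect only how far these libraries differ from each other, and that spread may be technical.

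Carriers of the SLC4 family transport bicarbonate and thereby set intracellular pH. Members that couple bicarbonate to sodium entry bring base into the cell, and anion exchangers that trade bicarbonate for chloride take base out. Carriers of the SLC12 family move chloride together with potassium or sodium, and in neurons the balance between Slc12a2, which loads chloride, and Slc12a5, which extrudes it, sets how cells respond to GABA.

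Promoter sequences from RefSeq (build GRCm38.p6) were read for 6 of the 7 genes, with 9 annotated start sites. Slc12a2 was left out of this step. 3 stretches of 250 bases before a start site are shown for the 2 genes that were higher in dentate gyrus and for Slc4a8, whose values overlapped between tissues. Each lay outside every exon of the GENCODE M21 annotation. Capitals mark matches on either strand to an E-box (CANNTG, bound by basic helix-loop-helix factors), a CCAAT box, the TATA box TATAAA, the GC box motif GGGCGG or the cyclic AMP response element TGACGTCA.
Slc4a4 (chr5:89027716-89027965, plus strand): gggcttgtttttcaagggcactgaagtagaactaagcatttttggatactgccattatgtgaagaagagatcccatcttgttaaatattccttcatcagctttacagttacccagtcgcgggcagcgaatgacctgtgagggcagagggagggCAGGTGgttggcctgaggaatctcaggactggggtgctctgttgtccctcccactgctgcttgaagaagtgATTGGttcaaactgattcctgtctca
Slc4a7 (chr14:14718534-14718783, plus strand): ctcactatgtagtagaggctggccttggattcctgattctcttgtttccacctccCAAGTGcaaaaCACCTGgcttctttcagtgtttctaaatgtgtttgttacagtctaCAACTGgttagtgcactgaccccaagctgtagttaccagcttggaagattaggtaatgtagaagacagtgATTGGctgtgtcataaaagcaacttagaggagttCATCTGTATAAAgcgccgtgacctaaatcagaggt
Slc4a8 (chr15:100761497-100761746, plus strand): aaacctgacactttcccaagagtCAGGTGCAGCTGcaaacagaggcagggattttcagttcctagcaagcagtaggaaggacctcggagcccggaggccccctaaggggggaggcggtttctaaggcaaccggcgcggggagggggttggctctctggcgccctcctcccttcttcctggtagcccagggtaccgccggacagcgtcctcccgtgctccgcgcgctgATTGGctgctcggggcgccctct

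The Slc4a4 stretch precedes the downstream of 2 RefSeq start sites of that gene and lies inside the gene model. It held 1 E-box starting 97 bases before the start and 1 CCAAT box at 26 bases. The Slc4a7 stretch, also inside its gene model, held 4 E-boxes, a CCAAT box at 69 bases and a TATA box at 29 bases. The E-box at 35 bases in Slc4a7 read CAGATG on the opposite strand, the form favoured by NeuroD factors, and it directly adjoined the TATA box. Slc4a8 held 2 adjoining E-boxes at 227 and 221 bases and a CCAAT box at 23 bases. Among 32851 promoter stretches of the same length, 66.2% held an E-box, 14.4% held CAGATG, 33.8% a CCAAT box, 12.4% a TATA box, 32.7% a GC box and 1.55% the cyclic AMP response element, so these matches are common. The upstream start site of Slc4a4 lay in a richer stretch, with 82% G and C and 44 CG dinucleotides, against medians of 52.4% and 6 over all stretches. It overlapped an annotated exon. Counts per gene do not show which start site was used in either tissue.

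Gene counts summed to between 22600963 and 36837908 per library. Of the markers read for each tissue, 5 dentate granule cell genes (Prox1, Stxbp6, Dock10, Maml2 and Rfx3) summed to 4635 to 5003 CPM (counts-per-million, scaled to library size) in dentate gyrus. They summed to 299 to 406 CPM in cortex. Of 5 layer 5 genes, 3 (Fezf2, Etv1 and Deptor) were higher in cortex, and the 5 summed to 860 to 977 CPM there and to 232 to 374 CPM in dentate gyrus. Bcl6 (129 CPM in cortex, 164 CPM in dentate gyrus) and Crym (24.6 and 31.1 CPM) had higher means in dentate gyrus and were not called. Bcl6 was the largest part of the dentate gyrus sum. Some genes differed sharply between libraries of a tissue, such as Car8 at 411 CPM in cortex replicate 1 against 1.44 CPM in replicate 2. Prox1 went the other way, at 2.37 CPM in cortex replicate 1 against 14.7 CPM in replicate 2. With 2 cortex libraries, neither can be said to be the unlike one. Fezf2 was at 60.2 CPM in dentate gyrus replicate 2 against 1.82 and 17.5 CPM in replicates 1 and 3. Rank correlations between libraries of a tissue were all close, from 0.9534 to 0.9569. The effect of leaving out cortex replicate 1 and dentate gyrus replicate 2 together is given where it changes the call of a gene described below. For short, these 2 libraries are called the libraries that stood apart, a label that rests only on such genes as Car8 and Fezf2. The label does not mean that they were outliers, since the rank correlations set neither of them apart. The Fezf2 difference itself had an edgeR adjusted p of 0.019, which was 0.0652 with cortex replicate 1 left out and 0.0586 with dentate gyrus replicate 3 left out.

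The main question was which of the 7 carriers differed between tissues. Slc4a4 and Slc4a7, which bring in sodium with bicarbonate, were higher in dentate gyrus, the anion exchanger gene Slc4a3 was higher in cortex, and the other 4 genes had overlapping values. Of the 6 genes other than Slc4a4, 2 passed an adjusted p of 0.05 in edgeR's quasi-likelihood fit with Benjamini-Hochberg adjustment over all tested genes, where 21.3% of all tested genes passed. In the same 2 genes every dentate gyrus library lay on the same side of both cortex libraries, a separation found in 50.1% of tested genes. It was upward in dentate gyrus for 1 of the 6 and for 25.1% of tested genes, and upward in cortex for 1 of the 6 and for 25% of tested genes. The genes were chosen with results of this contrast known, so nothing is read from these shares. In pulldown RNA of a dissected tissue, a smaller number of cells of a type and less RNA per cell cannot be told apart.

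**Figure D1:**
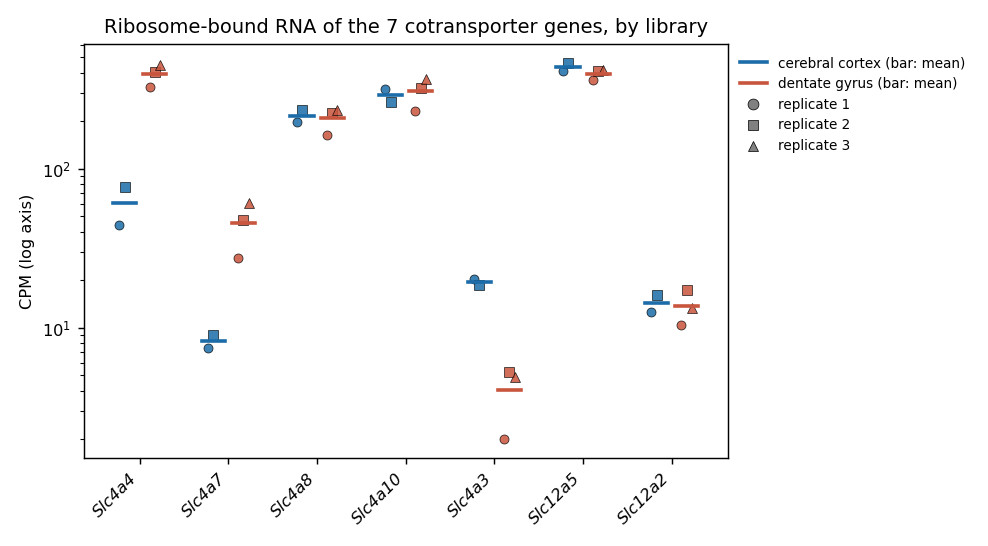
CPM of the 7 carrier genes in each library on a log axis, with cortex in blue, dentate gyrus in red, symbols for replicates and bars for means. Slc4a4 and Slc4a7 lie higher in all 3 dentate gyrus libraries than in both cortex libraries, Slc4a3 lies lower, and the other 4 genes overlap.

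Slc4a4 encodes the electrogenic sodium bicarbonate cotransporter NBCe1, known in brain mainly from astrocytes (GENCODE M21 on GRCm38, chromosome 5, 88886818 to 89239653, plus strand). Cortex replicate 1 had 44.1 CPM and cortex replicate 2 had 76.9 CPM, against 324, 403 and 445 CPM in dentate gyrus replicates 1, 2 and 3. The lowest dentate gyrus library was thus far above the higher cortex library, although the cortex libraries themselves differed. The means were 60.5 ± 23.2 CPM (SD, n = 2) and 391 ± 61.4 CPM (SD, n = 3), a 6.46-fold difference, with a fitted log2 fold change of 2.69 (SE 0.25).

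Slc4a7 encodes NBCn1, an electroneutral sodium bicarbonate cotransporter (chromosome 14, 14702279 to 14799940, plus strand). It was at 7.47 and 9.03 CPM in cortex, against 27.4, 47.5 and 60.9 CPM in dentate gyrus. All dentate gyrus values lay above both cortex values, and they spread more among themselves. The log2 fold change was 2.46 (SE 0.38, 95% interval 1.60 to 3.32), with an edgeR adjusted p of 0.00151. With both libraries named above left out, edgeR still gave an adjusted p of 0.0403.

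Slc4a3 encodes AE3, a chloride-bicarbonate exchanger of neurons and heart (chromosome 1, 75546266 to 75562172, plus strand). It was at 20.2 and 18.5 CPM in cortex, against 1.99, 5.24 and 4.89 CPM in dentate gyrus. Both cortex values were above all dentate gyrus values, and the 2 cortex libraries were close to each other. The log2 fold change was -2.26 (SE 0.50, 95% interval -3.38 to -1.14), with an edgeR adjusted p of 0.0101. With cortex replicate 1 left out, the log2 fold change was -2.19 (SE 0.66) and the adjusted p 0.0626. With both libraries that stood apart left out, they were -2.42 (SE 0.74) and 0.0809, so the size of the difference held while its error grew.

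The remaining sodium-coupled carriers were abundant in both tissues. Slc4a8 encodes NDCBE, a sodium-driven chloride-bicarbonate exchanger found at presynaptic terminals (chromosome 15, 100761747 to 100823968, plus strand). It was at 197 and 234 CPM in cortex and at 162, 224 and 234 CPM in dentate gyrus, and the groups overlapped. Its log2 fold change was -0.06 (SE 0.18), and the 95% interval of the difference ran from 0.73-fold to 1.27-fold. Slc4a10 encodes a sodium-driven carrier of neurons and choroid plexus, known as NCBE or NBCn2 (chromosome 2, 62046462 to 62326730, plus strand). It was at 316 and 262 CPM in cortex and at 230, 322 and 368 CPM in dentate gyrus, where replicate 1 lay below both cortex values and replicates 2 and 3 lay above them. The log2 fold change was 0.09 (SE 0.19), with an interval from 0.79-fold to 1.43-fold. The adjusted p was 0.856 for Slc4a8 and 0.806 for Slc4a10 by edgeR.

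Neither chloride cotransporter gene passed the test. Slc12a5 encodes KCC2, the potassium-chloride cotransporter that keeps chloride low in mature neurons (chromosome 2, 164960802 to 164999731, plus strand). It was at 414 and 463 CPM in cortex and at 358, 411 and 417 CPM in dentate gyrus. Replicates 1 and 2 of dentate gyrus lay below both cortex libraries, and replicate 3 lay between them. The log2 fold change was -0.15 (SE 0.12), the interval ran from 0.75-fold to 1.09-fold, and the edgeR adjusted p was 0.462. Slc12a2, on chromosome 18, encodes the sodium-potassium-chloride cotransporter NKCC1. It was at 12.6 and 16.1 CPM in cortex and at 10.4, 17.2 and 13.3 CPM in dentate gyrus, with dentate gyrus values on both sides of the cortex values. The log2 fold change was -0.08 (SE 0.39), and at this low level the interval was wide, from 0.52-fold to 1.73-fold (edgeR adjusted p = 0.921).

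Dentate gyrus replicate 1 gave the lowest dentate gyrus value for all 7 genes, whereas it was lowest for 34% of all tested genes. It was also the most deeply sequenced library, at 36837908 gene counts. In cortex, 5 of the 7 genes were higher in replicate 2. The share over all tested genes was not taken for that count, so nothing is read from it. The coefficient of variation within dentate gyrus was 44.2% for Slc4a3 and 37.2% for Slc4a7, and it was 8.18% for Slc12a5.

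Levels were compared between genes per kilobase of annotated exon (RPKM, which is CPM divided by the exon length in kilobases). In cortex the order was Slc12a5 (58.8 ± 4.66 RPKM, SD, n = 2), Slc4a10 (44.9 ± 5.96), Slc4a8 (16.6 ± 2.02), Slc4a4 (5.59 ± 2.15), Slc4a3 (2.25 ± 0.136), Slc12a2 (1.32 ± 0.228) and Slc4a7 (0.543 ± 0.0723), and no neighbours in this order overlapped. In dentate gyrus the order was Slc12a5 (53.1 ± 4.34 RPKM, SD, n = 3), Slc4a10 (47.7 ± 10.9), Slc4a4 (36.1 ± 5.68), Slc4a8 (15.9 ± 2.96), Slc4a7 (2.98 ± 1.11), Slc12a2 (1.25 ± 0.316) and Slc4a3 (0.470 ± 0.208). There the values of Slc12a5 and Slc4a10 overlapped, as did those of Slc4a10 and Slc4a4, and the neighbours further down did not. Slc4a4 was thus above Slc4a8 in all 3 dentate gyrus libraries and below it in both cortex libraries. Slc4a3 and Slc4a7 also changed places, with Slc4a3 last in dentate gyrus and Slc4a7 last in cortex. Both orders were the same with the longest annotated transcript as the length.

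**Figure D2:**
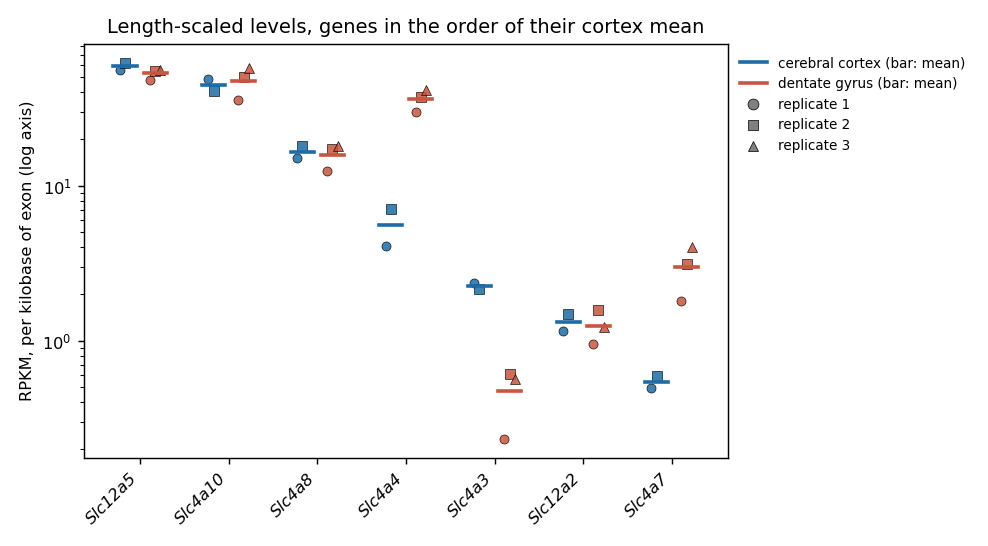
RPKM of the 7 genes on a log axis in the order of their cortex means, with cortex in blue, dentate gyrus in red, symbols for replicates and bars for means. The dentate gyrus values of Slc4a4, between 30 and 41.2 RPKM, exceed those of Slc4a8, and those of Slc4a3 fall to the bottom.

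The ratio of Slc12a5 to Slc12a2, often used as a measure of chloride extrusion against loading, was 48.1 and 42.1 in cortex on the RPKM scale, against 50.8, 35.0 and 46.0 in dentate gyrus. The ranges overlapped. The ratio describes RNA on tagged ribosomes and not transport. The ratio of Slc4a4, a base importer in many cells, to the base exporter Slc4a3 was 1.74 and 3.31 in cortex and 130, 61.2 and 72.3 in dentate gyrus. Slc4a4 made up 3.19% and 5.38% of the summed RPKM of the 7 genes in cortex and 23.2%, 22.6% and 23.1% in dentate gyrus. The summed RPKM of the 4 sodium-coupled carriers was 68.9 and 66.4 in cortex and 80.1, 108 and 120 in dentate gyrus. These ratios and sums include Slc4a4, for which the set was chosen, apart from the ratio of the chloride cotransporters, and no test was run on them.

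**Figure D3:**
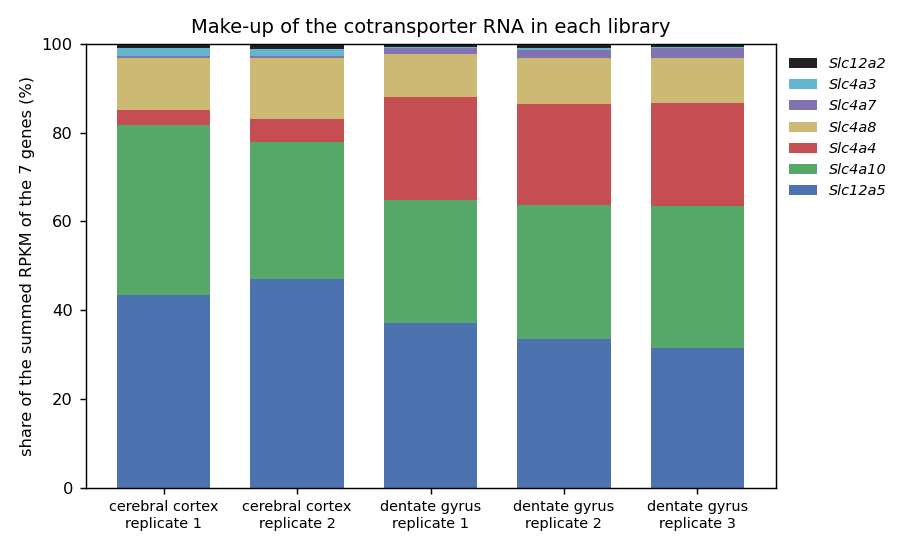
Share of each gene in the summed RPKM of the 7 genes, stacked to 100% for each library. The Slc4a4 segment takes 3.19% and 5.38% in cortex, against 22.6% to 23.2% in dentate gyrus.

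Because Slc4a4 is an astrocyte gene in much of the brain, 12 other astrocyte markers were read beside it. By edgeR, 5 of the 12 were higher in cortex (Aldh1l1, Slc1a2, Aldoc, Sox9 and S100b) and the other 7 did not pass. Of those 7, 5 had a higher mean in dentate gyrus. They were Gfap (0.673 CPM in cortex, 1.98 CPM in dentate gyrus), Aqp4 (11.9 and 18.2 CPM), Slc1a3 (8.84 and 19.9 CPM), Gja1 (1.74 and 2.74 CPM) and Fgfr3 (3.27 and 4.2 CPM). The 12 summed to 1222 and 1243 CPM in cortex, against 658 to 822 CPM in dentate gyrus. Most of each sum was Slc1a2, at 984 and 1004 CPM in cortex and 595, 619 and 717 CPM in dentate gyrus. The sum ran opposite to Slc4a4, and its lower level in dentate gyrus was not confined to Slc1a2. Aldoc was at 127 and 88.9 CPM in cortex, against 18.1 to 21.3 CPM in dentate gyrus. S100b was at 62.0 and 79.4 CPM in cortex, against 2.75 to 3.23 CPM in dentate gyrus. The 5 genes with a higher mean in dentate gyrus went the other way, so the sum does not stand for every gene of the list. Gfap, the astrocyte filament gene, was at 1.68, 0.800 and 3.45 CPM in dentate gyrus, and the gap junction gene Gja1 at 0.938, 5.82 and 1.45 CPM. Aldh1l1, a folate enzyme gene used to mark astrocytes, was at 0.0828, 0 and 0.0783 CPM there and at 3.85 and 12.6 CPM in cortex. With cortex replicate 2 left out, the edgeR adjusted p was 0.0567 for Aldh1l1 and 0.0557 for Sox9. With both libraries that stood apart left out, it was 0.0551 for Slc1a2 and 0.0663 for Sox9.

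On the RPKM scale, 11 of the 12 markers were below Slc4a4 in dentate gyrus, and these ran from 0.0119 to 6.12 RPKM against 36.1 RPKM. The set was chosen by the higher Slc4a4 level in dentate gyrus, which favoured a high place there in advance. The exception was the glutamate transporter gene Slc1a2, at 49.0 ± 4.92 RPKM (SD, n = 3), whose RNA is also known from hippocampal neurons. In cortex, 9 of the 12 were below Slc4a4 and 3 above it, Slc1a2, Aldoc and S100b. Cortex replicate 2, the cortex library with more Slc4a4, also had more of 9 of the 12 markers than replicate 1. Aldoc, Slc1a3 and Fgfr3 were lower in it. The share of all tested genes that were higher in replicate 2 was not taken. The part of carried-over astrocyte RNA in the Slc4a4 values was not tested in either tissue.

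**Figure D4:**
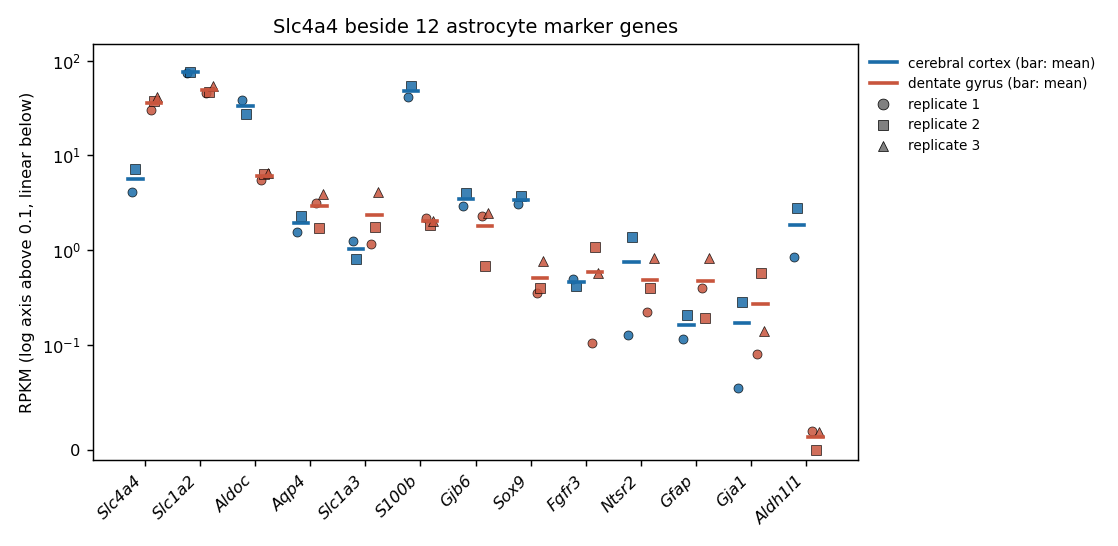
RPKM of Slc4a4 and 12 astrocyte marker genes in each library, on an axis that is logarithmic above 0.1 and linear below, with bars for means. In dentate gyrus only Slc1a2 lies above Slc4a4, and Aldh1l1 is near 0.

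Slc4a10 and Slc12a2 are also genes of the choroid plexus, the epithelium that lines parts of the ventricles near the hippocampus. Its 9 markers summed to 6.47 and 18.1 CPM in cortex and to 14.3 to 47.4 CPM in dentate gyrus. Most of the dentate gyrus sum was Kl, the klotho gene, at 7.67, 23.5 and 31.4 CPM, and Kl was higher in dentate gyrus (log2 3.95, SE 0.93, edgeR adjusted p = 0.0136). The log2 value was 3.08 with cortex replicate 1 left out and 6.14 with cortex replicate 2 left out, and the adjusted p was 0.0932 with both libraries that stood apart left out. Otx2, of the same list, was higher in cortex, at 0.485 and 2.05 CPM against 0, 0 and 0.0392 CPM (edgeR adjusted p = 0.0384). Its adjusted p was 0.102, 0.372, 0.0698 and 0.0747 with cortex replicate 1, cortex replicate 2, dentate gyrus replicate 1 and dentate gyrus replicate 2 left out, and 0.2 with both libraries left out. Ttr, the most abundant transcript of that epithelium, was at 0.883, 0 and 0.0783 CPM in dentate gyrus and at 0 and 7.10 CPM in cortex, and Folr1 was at 0 in all 5 libraries. The 6 interneuron markers summed to 865 to 886 CPM in cortex and to 182 to 216 CPM in dentate gyrus, and their part in the Slc4a3 difference was not tested. Most of that cortex sum was Sst, the somatostatin gene, at 700 and 641 CPM. Of the 6, 4 were higher in cortex, whereas Gad1, a GABA synthesis gene, was higher in dentate gyrus, at 26.6 and 41.0 CPM in cortex and 71.6, 57.2 and 64.8 CPM there (log2 0.93, edgeR adjusted p = 0.0276). The Gad1 adjusted p was 0.184, 0.0691 and 0.0616 with cortex replicate 1, dentate gyrus replicate 1 and dentate gyrus replicate 3 left out, and 0.175 with both libraries that stood apart left out. The Vip adjusted p of 0.0138 was 0.172 with cortex replicate 2 left out and 0.0506 with both libraries left out. The 8 oligodendrocyte markers summed to 230 and 313 CPM in cortex and to 164 to 225 CPM in dentate gyrus. Sums for oligodendrocyte precursors reached at most 20.7 CPM in any library, those for microglia 10.4 CPM and those for vascular cells 25.0 CPM.

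The other genes of both carrier families were read beside the set. The 5 SLC4 genes outside the set reached at most 1.60 CPM in any library, a value of Slc4a2, and 1 of the 5 was tested and did not pass. Of 7 further SLC12 genes, 4 were tested and did not pass.

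Genes that work with the carriers came from lists drawn up by function. Of 60 tested genes in 9 lists, 12 passed (20%), 6 upward in dentate gyrus and 6 upward in cortex, with a median log2 fold change of -0.12. Over all tested genes the share was 21.3% and the median 0.02. With both libraries that stood apart left out, fewer genes passed, in the lists and over all tested genes alike.

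**Figure D5:**
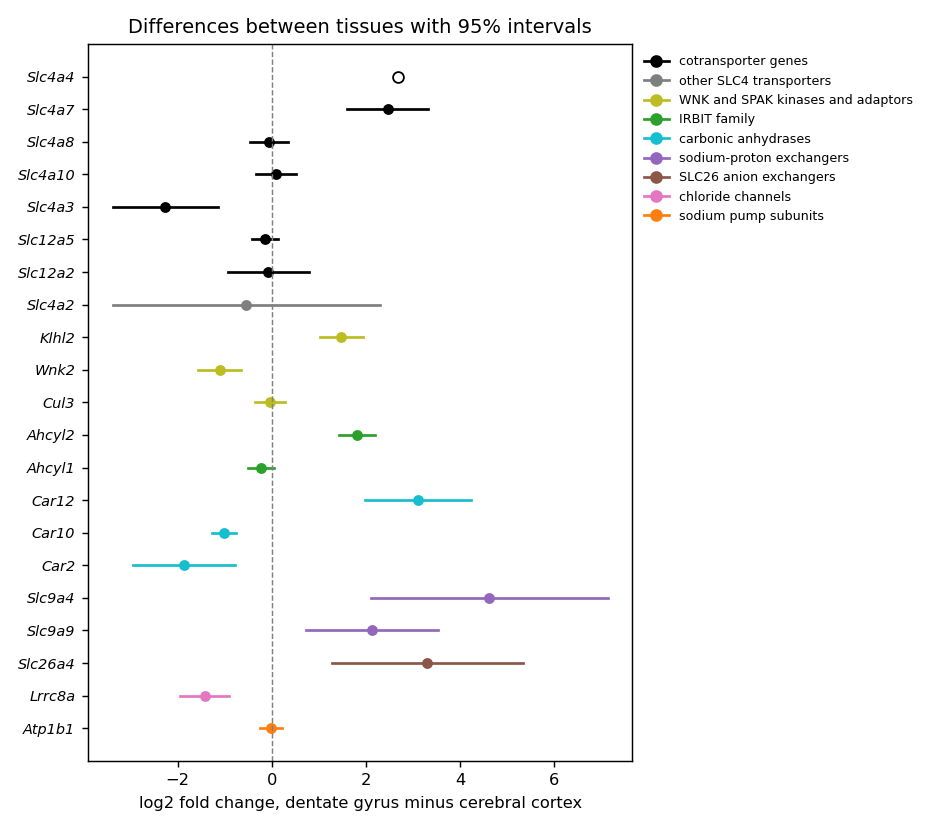
Log2 fold change, dentate gyrus minus cortex, with 95% intervals as lines, for the 7 carriers and for genes named from the function lists, coloured by list. Slc4a4 is an open circle with no interval because it chose the set, and Car8 is left out because 1 cortex library gave its value. Ahcyl2, Klhl2 and Car12 lie to the right of 0 and Wnk2, Car10 and Lrrc8a to the left.

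Of the IRBIT proteins, which bind and activate NBCe1, Ahcyl2 was higher in dentate gyrus and Ahcyl1 did not pass. Ahcyl2 was at 106 and 142 CPM in cortex and at 442, 376 and 489 CPM in dentate gyrus, with no overlap. Its log2 fold change was 1.81 (SE 0.18), with an edgeR adjusted p of 8.31e-05. Ahcyl1 averaged 319 ± 27.9 CPM (SD, n = 2) in cortex and 272 ± 1.07 CPM (SD, n = 3) in dentate gyrus (edgeR adjusted p = 0.223).

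Of 11 genes of the kinase pathway that phosphorylates SLC12 carriers, 1 rose and 1 fell in dentate gyrus, and the list median was -0.05. Klhl2, an adaptor that hands WNK kinases to the ubiquitin ligase scaffold Cul3, was at 62.3 and 64.8 CPM in cortex and at 217, 140 and 174 CPM in dentate gyrus (log2 1.48, SE 0.21, edgeR adjusted p = 0.000764). Wnk2, a kinase of that family, was at 108 and 94.1 CPM in cortex and at 55.3, 43.9 and 42.4 CPM in dentate gyrus (log2 -1.10, SE 0.20, edgeR adjusted p = 0.00396). Neither gene overlapped between tissues, and Wnk2 had an adjusted p of 0.0879 with both libraries that stood apart left out. Cul3, the most abundant of the list per length, averaged 231 ± 25.0 CPM (SD, n = 2) in cortex and 224 ± 12.9 CPM (SD, n = 3) in dentate gyrus.

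Carbonic anhydrases make bicarbonate from carbon dioxide. Of 9 tested members of this family, 1 was higher in dentate gyrus and 3 in cortex. Car12, a membrane enzyme with its active site outside the cell, was at 5.67 and 23.9 CPM in cortex and at 125, 112 and 142 CPM in dentate gyrus, with no overlap (log2 3.10, SE 0.51, edgeR adjusted p = 0.00194). The log2 value of Car12 was 2.41 with cortex replicate 1 left out and 4.44 with cortex replicate 2 left out. Car2, a cytosolic enzyme, was at 35.8 and 59.5 CPM in cortex and at 15.8, 4.97 and 18.3 CPM in dentate gyrus (log2 -1.87, SE 0.48). Its edgeR adjusted p of 0.0211 was 0.160 without cortex replicate 2. Car10, a family member known as catalytically inactive and as a neurexin ligand, was the most abundant of the family per length, at 1164 and 1149 CPM in cortex and 526, 646 and 536 CPM in dentate gyrus (log2 -1.02, SE 0.12, edgeR adjusted p = 0.000219). The call for Car8, also catalytically inactive, rested on cortex replicate 1: with that library left out, edgeR gave an adjusted p of 0.545, and with dentate gyrus replicate 2 left out as well 0.680.

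Other ion carriers differed singly. Lrrc8a, the obligatory subunit of the volume-regulated anion channel, was the only gene of 11 tested chloride channel genes to pass, at 96.1 and 129 CPM in cortex and 51.2, 41.4 and 33.3 CPM in dentate gyrus (log2 -1.42, SE 0.23, edgeR adjusted p = 0.00206). Slc26a4, the anion exchanger pendrin, was the only gene to pass of 7 tested in its family, at 0.314 and 5.58 CPM in cortex and 19.4, 33.8 and 32.4 CPM in dentate gyrus. Its edgeR adjusted p of 0.0284 was 0.0568 without dentate gyrus replicate 3. Its log2 value of 3.30 was 2.36 with cortex replicate 1 left out and 6.45 with cortex replicate 2 left out. Of 9 sodium-proton exchangers, Slc9a4 and the endosomal Slc9a9 were higher in dentate gyrus, and both were low, at 4.85 ± 3.44 and 10.2 ± 3.39 CPM there (SD, n = 3).

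Both exchanger calls were lost when single libraries were left out. The Slc9a4 adjusted p of 0.0159 was 0.0563, 0.0976 and 0.0678 without cortex replicate 1, cortex replicate 2 and dentate gyrus replicate 2 by edgeR. The Slc9a9 adjusted p of 0.0375 was 0.202, 0.0714 and 0.128 without cortex replicate 2, dentate gyrus replicate 2 and dentate gyrus replicate 3. With both libraries that stood apart left out, it was 0.189 for Slc9a4 and 0.0861 for Slc9a9. The log2 value of Slc9a4 was 4.62 over all libraries, 5.25 with cortex replicate 1 left out and 3.91 with dentate gyrus replicate 2 left out. That of Slc9a9 was 2.13 over all libraries and 2.92 without cortex replicate 1.

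The sodium pump maintains the sodium gradient that the cotransporters use. Its subunit gene Atp1b1 averaged 2116 ± 156 CPM (SD, n = 2) in cortex and 2083 ± 226 CPM (SD, n = 3) in dentate gyrus (edgeR adjusted p = 0.914).

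The genes whose pattern over the 5 libraries was most like that of Slc4a4 were sought among the 9918 tested genes that averaged at least 100 counts. Likeness was the Euclidean distance between log2 CPM values centred on each gene's mean. The 5 nearest were Apaf1 (distance 0.23), Lonrf3 (0.24), Ccbe1 (0.36), Dnah9 (0.38) and Golm1 (0.40). Apaf1, the scaffold of the apoptosome, was at 9.84 and 14.0 CPM in cortex and at 68.7, 78.0 and 91.8 CPM in dentate gyrus. Like Slc4a4, it was higher in cortex replicate 2 than in replicate 1 and highest in dentate gyrus replicate 3. The choice by smallest distance over these same libraries favours such a like order. Within the set, Slc4a7 was nearest to Slc4a4 with a distance of 0.74, and the other 5 genes were at 3.02 to 5.67. The distance includes the tissue difference for which Slc4a4 was chosen. The Dnah9 difference had an edgeR adjusted p of 0.0127, which was 0.0751 with cortex replicate 1 left out and 0.152 with both libraries that stood apart left out.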

How the data were processed

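Each library has its own deposited table of unnormalised read counts by gene symbol. STAR 2.0.0e, HTSeq and the mm10 build are named in the submitters' processing notes. Which annotation, strand setting and overlap mode were used is not given in the sources used here. No exon of the 7 carriers overlaps another gene in GENCODE M21. The authors' counts set aside reads that matched several places (25.03% to 31.76% of each library) and reads without a feature (10.59% to 14.83%). These classes stayed out of library sizes and tests.

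Counts were scaled by TMM, filtered with filterByExpr and tested with edgeR 4.0.16 (R 4.3.3) on tissue alone, dentate gyrus minus cortex, with Benjamini-Hochberg adjustment. A gene is called at an adjusted p under 0.05. SE is the log2 fold change divided by the square root of F. CPM use TMM-scaled sizes. RPKM use the GENCODE M21 exon union, which may differ from the models counted. Clcn4 is written Clcn4-2 in the files.

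In simulated counts for this comparison over 14136 genes, 23 of 100 genes changed 2-fold and 49 of 99 changed 4-fold were recovered, with 2 false calls among 74. Few genes were changed there, against 21.3% of tested genes called in the data. The Benjamini-Hochberg cutoff is stricter when few genes differ, so these shares need not hold for the real comparison. Small changes, and some as large as 4-fold, may still be missed.

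The genes and lists were chosen with earlier results of these data known. Named genes are the 7 carriers, up to 3 called genes per list and direction with the smallest adjusted p, the gene of each list with the highest RPKM, and the 5 genes most like Slc4a4. Predicted loci, Rik, microRNA and snoRNA symbols were left out of the last. Cell type markers are named outside that rule. Some genes that the rule names are not reported here. Alternatives were other scalings, filters and dispersions, a replicate block, DESeq2 1.42.0, limma 3.58.1 voom, a test against 1.5-fold, left-out libraries and transcript length. Figures used matplotlib 3.10.9.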

Additional observations from a re-analysis of the deposited data

How the results depend on the processing

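The Slc4a4 log2 fold change ran from 2.33 to 3.11 over 15 alternatives. That of Slc4a7 ran from 2.13 to 2.70, and its call was kept in all 15. The Slc4a3 log2 fold change ran from -2.57 to -1.95, and its call was lost in 2 of 15, both without cortex replicate 1. Where a cortex library is left out, the lone library is assumed to vary like the dentate gyrus group.

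Over all genes, 3009 were called (1481 higher in dentate gyrus, 1528 higher in cortex). Without each library in turn the counts were 1886 to 2775 in all, 908 to 1276 higher in dentate gyrus and 913 to 1499 higher in cortex. With both cortex replicate 1 and dentate gyrus replicate 2 left out they were 1578, 771 and 807, and against 1.5-fold 1545, 706 and 839. Among the list genes, 12 were called, 9 to 15 without each library in turn and 7 without both libraries.

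Genes that were not called changed sign under some settings. Over the fits that each leave out 1 library, the log2 value ran from -0.18 to 0.07 for Slc4a8, from -0.08 to 0.24 for Slc4a10, from -0.29 to 0.08 for Slc12a2, from -1.08 to 0.29 for Slc4a2, from -0.14 to 0.04 for Cul3 and from -0.13 to 0.06 for Atp1b1. Without cortex replicate 2 the log2 values were 0.03 (Slc4a8), -0.08 (Slc4a10), 0.08 (Slc12a2), 0.29 (Slc4a2) and 0.04 (Cul3). Without dentate gyrus replicate 1 they were 0.07 (Slc4a8), 0.07 (Slc12a2) and 0.04 (Atp1b1), and without dentate gyrus replicate 3 -0.08 (Slc4a10). Atp1b1 was at 0.06 without cortex replicate 1 and at 0.05 without both libraries. With the longest transcript as length, the ratio of Slc12a5 to Slc12a2 was 33.3 in cortex and 32.4 in dentate gyrus in place of 45.1 and 43.9, and the Slc4a4 share in dentate gyrus was 25.1% in place of 23.0%, since the lengths entering them differ.

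With the replicate number as a block, the log2 value of Slc4a10 was -0.08 and that of Cul3 0.01, and 2237 genes in all and 10 list genes were called. The deviations of same-numbered libraries from their group means had correlations of -0.0040 and -0.0163, which gives no hint of pairing. Whether they share an animal or a day is not known. Depth limits the lowest genes, such as Slc9a4 with 9 and 3 counts in the cortex libraries.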
